A study of Homo sapiens with 39 samples.

Results

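The genes described are the metallothioneins MT1E, MT1F, MT1G, MT1H, MT1M, MT1X and MT2A and their transcriptional activator MTF1. They were chosen by name, as the rows that carry these 8 gene names in all 13 deposited expression tables, and make up 8 of 45435 genes. Expression was measured by poly(A) RNA sequencing in HCT116 cells, a human colorectal cancer line, in 13 groups with 3 libraries each. Parental cells were the Flp-In T-REx host without any construct. The remaining 12 groups were stable lines, 1 per isoform of HNF4A (hepatocyte nuclear factor 4 alpha), each fused to GFP and named isoform 1 to isoform 12. All 13 groups, the parental cells included, received 2.5 µg/ml doxycycline for 48 h, which switches the construct on, and selection antibiotics were withdrawn at that time. Until induction, blasticidin was present in all cultures, together with zeocin for the parental cells and with hygromycin B for the 12 lines. Each isoform was represented by 1 line, and no group carried GFP alone, so an isoform, its line and the fused GFP cannot be told apart. Nothing in the labels says that the 3 libraries of a group came from separate cultures, so p-values measure the spread between these libraries.

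Metallothioneins are small cysteine-rich proteins that bind zinc, copper and cadmium, buffer free zinc inside the cell and quench reactive oxygen species. Their genes lie side by side in 1 cluster and are switched on by the zinc-sensing transcription factor MTF-1, the product of MTF1, which binds short metal response elements near the start of each gene. Glucocorticoids and other stresses are further inducers. In the intestinal epithelium metallothioneins take part in the handling of dietary zinc and in protection against metal toxicity. HNF4A is a nuclear receptor that directs epithelial differentiation in liver, kidney and gut, and its isoforms differ at the N-terminus and at the C-terminus.

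The 7 metallothionein genes lie on chromosome 16 within a stretch that begins with MT2A and ends with MT1X in the GENCODE 29 annotation of GRCh38. MT2A (ENSG00000125148.6) is at chr16:56608199-56609497 and MT1X (ENSG00000187193.8) at chr16:56682424-56684196, both on the plus strand. Between them lie MT1E at 17.28 kb from the MT2A end with the lower coordinate, MT1M at 24.03 kb, MT1F at 49.49 kb, MT1G at 58.53 kb and MT1H at 61.62 kb. MT1G is the only one of the 7 on the minus strand. MTF1 (ENSG00000188786.9) is on another chromosome, at chr1:37809567-37859620 on the minus strand.

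The sequences before the start sites are shown because they hold the letters through which MTF-1 is known to act, in genes that these cells expressed at very different levels. RefSeq promoters (GRCh38.p14) were found for 4 of the 8 genes, MT2A, MT1X, MT1H and MTF1. The 250 bases before the RefSeq start site were searched on both strands for the core of the metal response element, spelled TGCACNC or TGCGCNC, and overlapping matches were allowed. The windows below read 5′ to 3′ along the plus strand, and capitals mark the matches.
MT2A, chr16:56608334-56608583: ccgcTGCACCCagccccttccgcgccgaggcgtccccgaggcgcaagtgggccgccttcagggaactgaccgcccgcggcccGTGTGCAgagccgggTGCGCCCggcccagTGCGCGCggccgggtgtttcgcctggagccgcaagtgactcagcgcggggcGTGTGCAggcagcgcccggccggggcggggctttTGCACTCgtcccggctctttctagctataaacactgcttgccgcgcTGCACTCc
MT1X, chr16:56682220-56682469: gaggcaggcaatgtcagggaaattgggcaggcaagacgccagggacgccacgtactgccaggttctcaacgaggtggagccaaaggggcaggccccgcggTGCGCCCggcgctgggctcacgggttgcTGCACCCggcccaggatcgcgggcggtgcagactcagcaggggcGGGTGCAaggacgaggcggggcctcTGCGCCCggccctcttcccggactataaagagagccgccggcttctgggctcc
MT1H, chr16:56669564-56669813: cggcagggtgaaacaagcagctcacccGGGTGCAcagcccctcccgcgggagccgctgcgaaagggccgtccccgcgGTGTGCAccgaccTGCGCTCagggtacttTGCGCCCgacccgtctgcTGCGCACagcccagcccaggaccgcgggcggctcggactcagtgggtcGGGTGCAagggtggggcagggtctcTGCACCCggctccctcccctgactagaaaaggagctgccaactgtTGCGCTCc

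The MT2A window held 7 matches, 5 on the plus strand and 2 on the minus strand. The MT1X window held 4 matches and the MT1H window 8, while the MTF1 window held 0. Of all 35116 promoters in the same table, 24.8% held at least 1 match, 0.37% at least 4 and 0.0313% at least 7. The nearest matches to the start began 8 bases before it in MT2A and in MT1H and 53 bases before it in MT1X. The HNF4 motif CAAAGTCCA, searched the same way, was absent from the 4 windows and present in 0.325% of all promoters. A match is a description of the letters, and no binding was measured.

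Levels are given in TPM, the abundance of a transcript scaled to a fixed sum per library and corrected for gene length, so that genes can be compared with each other within a library. MT2A was the most abundant of the 8 genes, at a median of 902 TPM over the 39 libraries and a range of 337 to 1729. MT1E followed with a median of 360 TPM (range 186 to 605), MT1X with 130 TPM (range 62.9 to 237) and MT1F with 30.6 TPM (range 19.1 to 44.3). MTF1, the activator, was at 9.08 TPM (range 7.77 to 10.7). Across libraries the range of MT1E overlapped those of MT2A and MT1X, while MT1F and MTF1 each kept to a range of their own.

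The other 3 metallothioneins were at or near 0 in every group. MT1G was above 0 in 9 of 39 libraries and reached 0.607 TPM in 1 library of isoform 1. MT1M was above 0 in 1 library, replicate 2 of the parental cells, at 0.11 TPM. MT1H was listed at 0 in all 39 libraries, and in the authors' deposited table its mean normalised count was 0 in all 12 comparisons. Thus the window with the most matches among the 4 searched belonged to the member listed at 0 throughout. Along the cluster MT1M lay between the expressed MT1E and MT1F, and MT1G and MT1H lay side by side between the expressed MT1F and MT1X. Of 10 further metallothionein genes and pseudogenes, 1 is not in the tables under its name, MT3, MT1HL1 and MT1IP were listed at 0 in all libraries, and the pseudogene MT1DP alone passed the filter on low values, at 1.6 to 6.89 TPM.

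**Figure D1:**
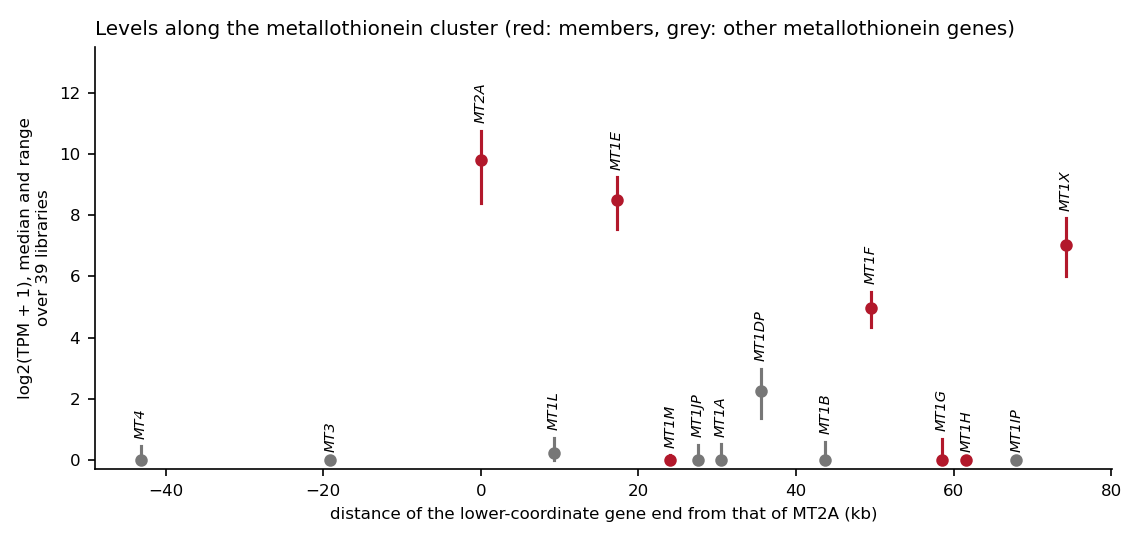
Level of each metallothionein gene of the cluster, as the median (point) and range (line) of log2(TPM + 1) over 39 libraries, against the distance in kb of the gene's lower-coordinate end from that of MT2A. Red genes are the 7 described here and grey genes other metallothioneins; MT2A, MT1E, MT1F and MT1X stand well above the rest, and MT1M, MT1G and MT1H lie at the bottom between them.

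The metallothionein genes resemble each other, and reads that fit several of them have to be divided when transcripts are quantified. Of the 31-base words in the GENCODE 29 transcripts of MT2A, 92.8% occur in no other gene on either strand. The share was 84.4% for MT1E, 80.2% for MT1X and 96.8% for MT1F, and it was lowest for MT1H at 72.3%. Levels of MT1E and MT1X therefore carry an uncertainty from shared reads that the files do not show. In bulk samples a lower level can mean fewer expressing cells or less RNA per cell, which cannot be told apart.

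MT2A, the metallothionein found in most human tissues, had the widest range of group means. The parental libraries held 1262, 928 and 1091 TPM in replicates 1, 2 and 3, a mean of 1094 ± 167 (SD, n = 3). The isoform 4 line was highest, with libraries at 1630, 1181 and 1729 TPM and a mean of 1514 ± 292, and the isoform 11 line lowest, with replicates 1, 2 and 3 at 662, 351 and 484 TPM and a mean of 499 ± 156. All 3 libraries of isoform 11 lay below the lowest parental library, whereas the libraries of isoform 4 overlapped the parental range. The group means fell in the order isoform 4, isoform 6 (1249 TPM), parental, isoform 5 (1018), isoform 3 (995), isoform 2 (911), isoform 8 (876), isoform 12 (817), isoform 9 (778), isoform 1 (739), isoform 7 (729), isoform 10 (610.3) and isoform 11. No 2 neighbours in this order were separated, since the libraries of each group overlapped those of the next.

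MT2A was wholly below the parental range in the libraries of 4 of 12 lines. Such separation was common: 26.1% of all pairs of a tested gene and a line were wholly below the parental libraries and 19% wholly above. Besides isoform 11 these were isoform 8 (863, 864 and 902 TPM in replicates 1, 2 and 3), isoform 9 (913, 640 and 782 TPM) and isoform 10 (804, 407 and 620.5 TPM). In isoforms 1 to 7 and 12 at least 1 library fell within the parental range or above it. The isoform 2 line showed the widest spread, with 1375 TPM in replicate 1, 337 in replicate 2 and 1022 in replicate 3. Its libraries thus ranged from above every parental library to the lowest MT2A value of all 39.

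**Figure D2:**
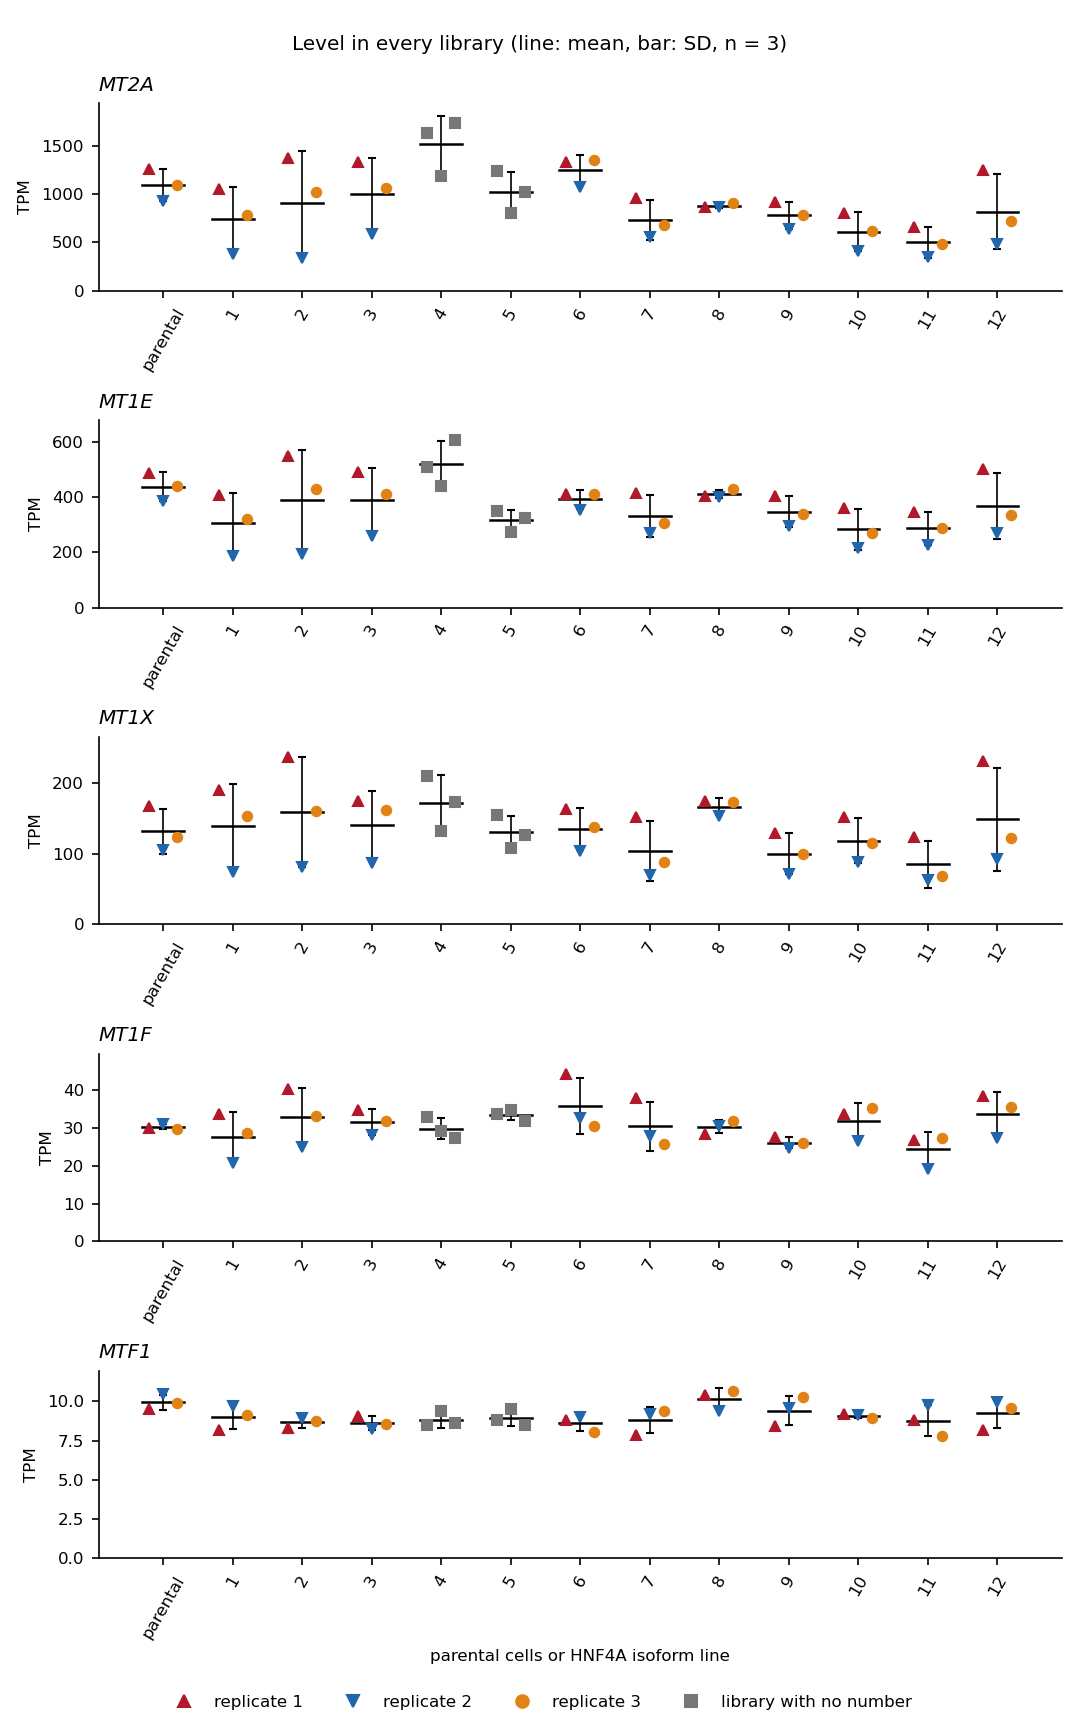
TPM of MT2A, MT1E, MT1X, MT1F and MTF1 in each of the 39 libraries, by group; horizontal lines are means and bars are SDs (n = 3), and symbols mark the replicate number that the labels give (squares: libraries of isoforms 4 and 5, which have no number). Replicate 1 lies high and replicate 2 low in most groups for MT2A, MT1E and MT1X, and MTF1 stays between 7.77 and 10.7 TPM.

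Each line was compared with the parental cells in 1 limma fit over all 39 libraries on the log2(TPM + 1) scale, for the 15003 genes whose mean reached 1 TPM. Calls required 2 things: a p under 0.05 after Benjamini-Hochberg adjustment over all tested genes, and a log2 fold change of 1 or more in either direction. Of the 8 genes, 5 passed the filter (MT2A, MT1E, MT1X, MT1F and MTF1), which gave 60 gene and line pairs. By this rule, isoforms 1, 2 and 3 had 4.52%, 3.73% and 0.807% of all tested genes called in either direction, and isoforms 4, 5 and 6 had 0.54%, 0.293% and 0.247%. For isoforms 7, 8 and 9 the share was 2.08%, 1.41% and 0.827%, and for isoforms 10, 11 and 12 it was 1.44%, 1.7% and 0.573%. HNF4A itself stood at 31.5 TPM in the parental cells and at 614 to 1071 TPM in the 12 lines. The epithelial markers EPCAM, KRT8, KRT18 and KRT19 were above 324 TPM in all 39 libraries, while CDX1, CDH17 and GPA33 reached at most 0.458 TPM. Among markers of other cell types, PTPRC and CD3E reached at most 0.296 TPM and COL1A2 at most 0.0405 TPM, while COL1A1, ACTA2 and CD68 reached 14.9, 22.1 and 34.7 TPM.

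MT2A in the isoform 11 line was the 1 pair called. The estimate on the log2 scale was -1.17 ± 0.40 (SE), at a limma adjusted p of 0.0202, with all 3 libraries below all 3 parental ones. In that line 0.653% of all tested genes were called lower, and 31.4% had all 3 libraries below all 3 parental ones. Leaving out 1 of the 6 libraries at a time, the call held in 3 cases (parental replicates 2 and 3 and replicate 1 of isoform 11, adjusted p from 0.0138 to 0.0481) and was lost in 3. The adjusted p was 0.0682 without parental replicate 1, 0.1 without replicate 2 of isoform 11 and 0.051 without replicate 3 of isoform 11, with log2 fold changes of -1.06, -0.94 and -1.17. Without replicate 3 in all numbered groups it was 0.17. In the authors' deposited table, the MT2A log2 fold change was -0.72 in isoform 11, with an SE of 0.2 and an adjusted p of 0.00169. For isoform 10 that table gives -0.52, with an SE of 0.194 and an adjusted p of 0.0239. The share of all genes with an adjusted p under 0.05 in that table is not given here. The authors' MT2A fold changes were smaller in size than the limma estimates in every line. How they were computed is not given, so the sizes of the authors' and the limma values, here and below, are not directly comparable.

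The other 59 pairs were not called, and 0 pairs were called higher. In all, 8 pairs had an unadjusted p under 0.05: MT2A and MT1E in isoforms 10 and 11, and MTF1 in isoforms 2, 3, 6 and 11. Over all tested genes and the 12 lines, 40.1% of gene and line pairs had such a p, so these 8 of 60 are not a result about the members. For MT2A in isoform 10 the estimate was -0.88 ± 0.40 (limma adjusted p = 0.0805). Over the 12 lines the MT2A log2 fold change ran from -1.17 to 0.46, with 10 lines negative and 2, isoforms 4 and 6, positive. Without replicate 2 of the numbered groups, isoform 2 moved from -0.48 to 0.01 and isoform 3 from -0.20 to 0.02. The SE of 0.40 left wide 95% intervals, which reached from -1.98 at the low end of isoform 11 to 1.27 at the high end of isoform 4, so the intervals of uncalled lines such as isoforms 1, 2 and 10 also included a fall of 1 log2 unit.

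MT1E, a further zinc-binding metallothionein, was at 437 ± 52.2 TPM (SD, n = 3) in the parental cells. Its group means ran from 283 TPM in isoform 10 to 518 TPM in isoform 4, and only isoform 4 exceeded the parental mean. The libraries of isoform 5 (350, 273 and 323 TPM), isoform 10 (360.2, 216 and 271 TPM) and isoform 11 (346, 225 and 287 TPM) lay wholly below the parental ones, which held 488, 384 and 440 TPM. Of all tested genes, 15.7%, 28.6% and 31.4% lay wholly below in isoforms 5, 10 and 11. The MT1E log2 fold changes were negative in 11 of 12 lines, from -0.65 in isoform 10 to 0.24 in isoform 4, and none was called (lowest limma adjusted p = 0.0812). In the authors' deposited table MT1E passed an adjusted p of 0.05 in those 3 lines, isoform 5 (log2 fold change -0.35), isoform 10 (-0.45) and isoform 11 (-0.42). Both results come from the same libraries. The share of all genes that passed in the authors' table is not given here. In the limma fit, 30.7% of all gene and line pairs had an adjusted p under 0.05.

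MT1X, at the far end of the cluster, did not follow MT2A in every line. Its parental libraries held 168, 105 and 124 TPM (mean 132 ± 31.9). Every one of the 12 lines overlapped that range. The highest means were those of isoform 4 (172 TPM) and isoform 8 (167 TPM, libraries at 175, 153 and 174), and the lowest that of isoform 11 (85.3 TPM, libraries at 124, 62.9 and 69). The log2 fold changes were negative in 5 lines and positive in 7, from -0.67 to 0.38, and none was called. In isoform 8 MT2A had a log2 fold change of -0.31 and MT1X one of 0.36, both with intervals that included 0.

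MT1F, which was expressed at a lower level, differed least among the 4 active metallothioneins. Its parental libraries were at 30.1, 31.1 and 29.8 TPM, and group means ran from 24.4 TPM in isoform 11 to 35.8 TPM in isoform 6. The libraries of isoforms 9 and 11 lay wholly below the parental ones and those of isoform 5 wholly above, the lowest of them at 31.9 TPM. Of all tested genes, 17.1% and 31.4% lay wholly below in isoforms 9 and 11, and 22.3% wholly above in isoform 5. The MT1F log2 fold changes ran from -0.32 to 0.22, with intervals within -0.66 and 0.56, and none was called.

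MTF1, the activator, was nearly level over the groups. Parental libraries held 9.49, 10.4 and 9.9 TPM, and the group means of the lines ran from 8.63 TPM in isoform 3 to 10.2 TPM in isoform 8. The libraries of 6 lines lay wholly below the parental ones (isoforms 2, 3, 4, 6, 7 and 10). The share of all tested genes wholly below was 15.9% to 41% in these 6 lines. The log2 fold change was negative in 11 of 12 lines but small, from -0.18 to 0.03, and its 95% intervals stayed within -0.35 and 0.19. No line was called, and the lowest limma adjusted p was 0.0562. The authors' deposited table gave MTF1 an adjusted p under 0.05 in isoforms 3, 5 and 6, with log2 fold changes of -0.17, -0.16 and -0.18. The share of all genes with such a p in that table is not given here, and it was 30.7% of gene and line pairs in the limma fit.

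**Figure D3:**
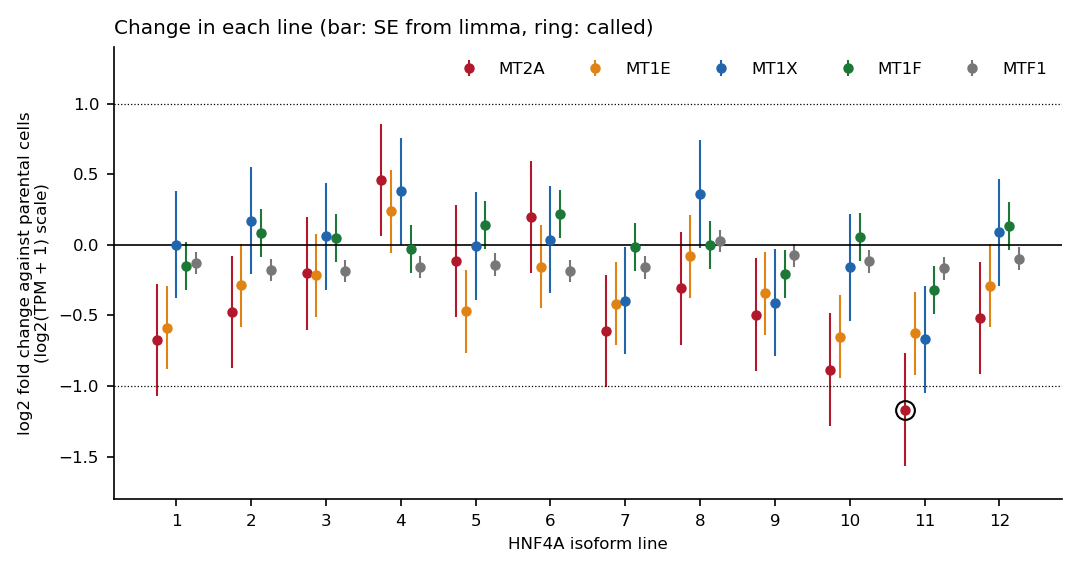
Log2 fold change of each line against the parental cells on the log2(TPM + 1) scale for the 5 genes that passed the filter; bars are SEs from limma, dotted lines mark a log2 fold change of 1 in either direction, and the ring marks the 1 call. MT2A in isoform 11 lies at -1.17; the other 59 pairs lie between -0.88 and 0.46, and MTF1 stays within -0.18 and 0.03.

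Described as a group, the 4 active metallothioneins had a median log2 fold change between -0.65 in isoform 11 and 0.31 in isoform 4. Over all tested genes the median in these lines was -0.06 and -0.03. Summed over the 7 metallothioneins, the parental cells held 1694 ± 250 TPM (SD, n = 3), isoform 4 held 2234 ± 399 and isoform 11 held 895 ± 251. Only isoforms 10 and 11 had all 3 sums below all 3 parental sums. Such separation was common there, since 28.6% and 31.4% of all tested genes lay wholly below in these lines.

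The isoforms were also compared by their shared ends. In the standard naming, isoforms 1 to 3, 4 to 6, 7 to 9 and 10 to 12 share an N-terminal form, and isoforms 3, 6, 9 and 12 share a short C-terminal form. Because each isoform is 1 line, this comparison used the 12 line means. MT2A was higher in isoforms 4 to 6 than in isoforms 1 to 3, by 0.63 ± 0.17 on the log2 scale (SE, limma, adjusted p = 0.0209, 95% interval 0.25 to 1.02), which is below the fold required for a call. Without replicate 2 of the numbered groups the difference was 0.22 (adjusted p = 0.378), and without replicate 1 it was 0.94. In that comparison 1.95% of tested genes were called, and 34.6% had an adjusted p under 0.05 alone, so such a p was common. For MT1E the difference was 0.23 ± 0.18, for MT1F 0.11 ± 0.12, for MT1X 0.06 ± 0.24 and for MTF1 0.00 ± 0.07 (limma adjusted p from 0.344 to 0.96).

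The 7 to 9 forms and the short C-terminal forms gave no call among the 5 genes. Between isoforms 7 to 9 and 1 to 3, where 0.52% of tested genes were called, the MT2A difference was -0.02 ± 0.17 (95% interval -0.41 to 0.37) and the MT1X difference -0.23 ± 0.24. Between the short and the other C-terminal forms, where 0.00667% of genes were called, the MT2A difference was 0.22 ± 0.13 (95% interval -0.07 to 0.51).

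The share of MT2A in the metallothionein sum varied less within a group than the level did. It was 64.8%, 64% and 64.8% in the parental libraries. The 9 libraries of isoforms 4, 5 and 6 all lay above this, between 66% and 69.9%, with means of 67.6% ± 1.19, 67.8% ± 1.79 and 68.9% ± 0.91 (SD, n = 3). Isoform 3 overlapped the parental range with a mean of 63.5%. The other 8 lines lay wholly below it, from isoform 9 at 62.2% to isoform 11 at 55.4% ± 1.9. Thus isoforms 4 to 6 and 8 of the other 9 lines lay on opposite sides of the parental cells, a pattern described here without a test. For levels of single genes, 26.1% of gene and line pairs lay wholly below the parental libraries and 19% wholly above. No such share is given for percentages like this one. MT2A is most of the sum, so its share is tied to its level. Replicate 2 held the lowest share in the parental cells and in isoforms 1, 2, 3, 7, 10, 11 and 12. It did not in isoforms 6, 8 and 9.

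**Figure D4:**
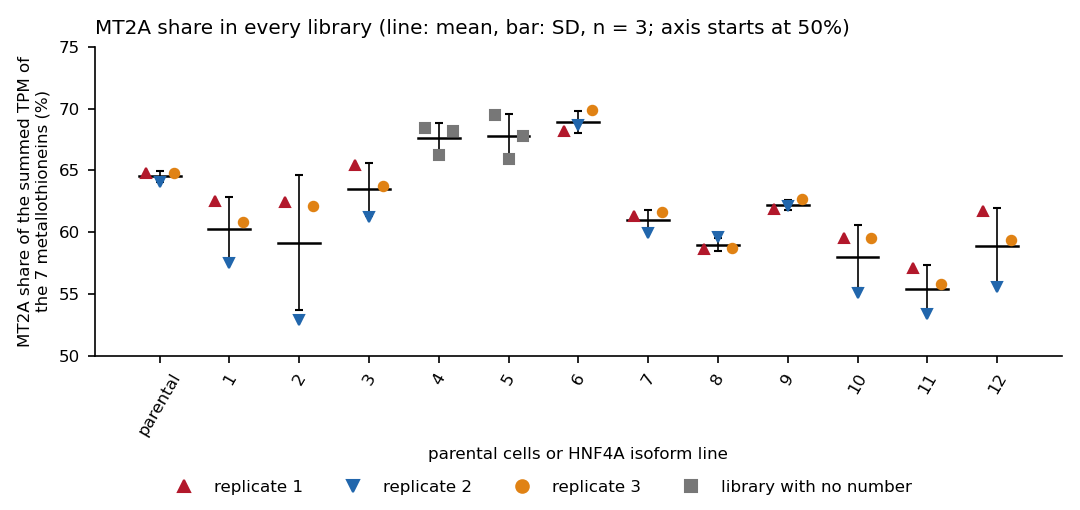
Share of MT2A in the summed TPM of the 7 metallothioneins in each library, in percent, by group; lines are means, bars SDs (n = 3), and symbols mark replicate numbers (squares: no number). The axis starts at 50%. The libraries of isoforms 4, 5 and 6 lie above the parental 64% to 64.8%, and those of 8 other lines below.

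Within the groups, the libraries differed in metallothionein level along with their replicate number. The labels number the libraries of 11 groups from 1 to 3, and in all 11 of them MT1X was highest in replicate 1 and lowest in replicate 2. Of all tested genes, 0.00667% did so in all 11 groups, a share that is MT1X alone. MT1E and MT2A were highest in replicate 1 and lowest in replicate 2 in 9 of the 11 groups each. The share of tested genes with at least 9 such groups was 0.02%, made up of MT1X, MT1E and MT2A only. MT1F did so in 5 groups, matched or exceeded by 2.52% of genes, and MTF1 in 1. For MT2A the 2 exceptions were isoform 6, with replicate 3 at 1349 TPM above replicate 1 at 1326, and isoform 8, with its 3 libraries within 1.05 times of each other.

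The means over the 11 groups give the size of this difference. MT1X averaged 173 TPM in replicate 1, 90.3 in replicate 2 and 128 in replicate 3. MT2A averaged 1072, 601 and 863 TPM and MT1E 434, 277 and 362 TPM. MTF1 averaged 8.79, 9.4 and 9.18 TPM, with no such order. The highest MT2A library of a group exceeded the lowest by 4.08 times in isoform 2, 2.75 times in isoform 1 and 2.56 times in isoform 12. What the replicate number stands for is not given in the labels, and its part in the line differences was not tested beyond the fits with the number as a term.

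**Figure D5:**
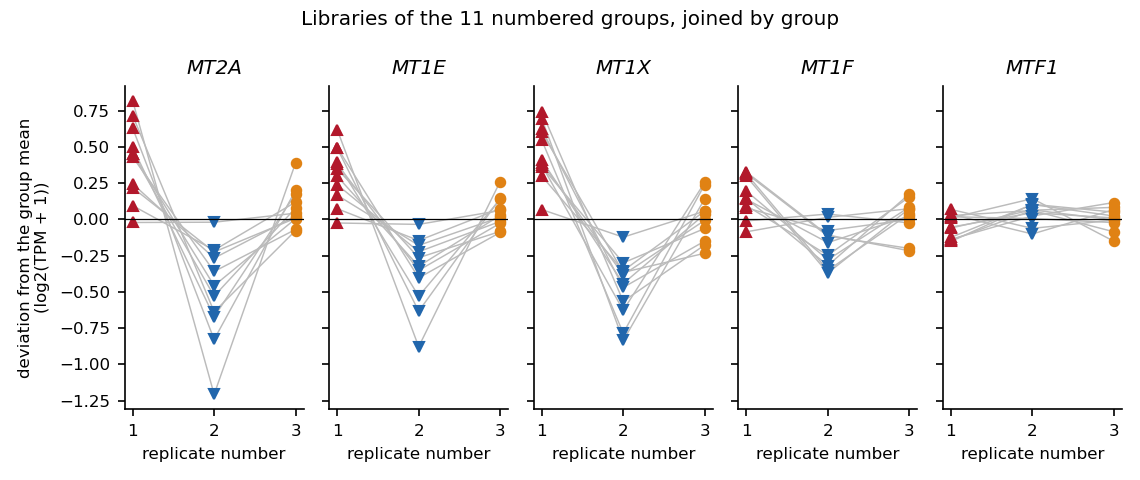
Deviation of each library from its group mean of log2(TPM + 1), by replicate number, for the 33 libraries of the 11 numbered groups; grey lines join the libraries of 1 group. MT1X in replicate 1 is above and in replicate 2 below the group mean in all 11 groups, MT2A and MT1E are highest in replicate 1 and lowest in replicate 2 in 9 groups, and MTF1 shows no such order.

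The 4 active metallothioneins moved together within the groups. Over the 39 deviations of libraries from their group mean, Pearson's r was 0.99 between MT2A and MT1E, 0.95 between MT2A and MT1X, 0.94 between MT1E and MT1X and 0.79 between MT2A and MT1F. With MTF1 the r of MT2A was -0.51. Among all other tested genes, CXXC1 came nearest to MT2A, at 0.84. The points share libraries, and the 4 genes share some reads. Correspondingly the spread within groups was wide: the residual SD of MT2A was 0.52 on the log2 scale, larger than that of 97.2% of tested genes, against 0.10 and 52.7% for MTF1. For MT1X, MT1E and MT1F the share of genes with a smaller SD was 97%, 95.7% and 90.7%.

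Across the 13 group means the genes resembled each other less. The r of log2(TPM + 1) was 0.86 between MT2A and MT1E, 0.69 between MT2A and MT1X, 0.52 between MT2A and MT1F and 0.05 between MT2A and MTF1. The tested genes nearest to MT2A over the 13 means were CISH (r = 0.88) and PCDH1 (r = 0.87), and those nearest to MT1E were WNT7B (r = 0.86) and MT2A itself. For MT1F they were CEBPA (0.86) and DNM3 (0.85), for MT1X PPT2 (0.86) and MKX (0.84), and for MTF1 UBN2 (0.94) and CNOT4 (0.92). Over the 12 lines the r with the HNF4A level was 0.64 for MT2A and at most 0.36 for the other 4 genes. These are descriptions over 13 or 12 points, out of 15003 genes searched.

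Genes that handle zinc and copper gave no call. Of 10 zinc exporters of the SLC30 family 7 were tested, of 14 zinc importers of the SLC39 family 11, and of 13 copper-handling genes 12, with 0 called in any line, and medians per line between -0.14 and 0.12. Calls were rare over all tested genes too, from 0.247% in isoform 6 to 4.52% in isoform 1. The 0 calls in lists this small are thus not a result about these genes. SLC30A1, the exporter that MTF-1 also controls, was picked out after its values were seen. It was at 26.4 ± 2.57 TPM in the parental cells and 40.8 ± 2.81 TPM in isoform 1. The log2 fold change was 0.61 ± 0.10 (limma SE), with an adjusted p of 6.42e-06, and stays under the fold required for a call. Over all tested genes and the 12 lines, 30.7% of pairs had a limma adjusted p under 0.05. The largest change among the tested exporters went the other way, at -0.87 ± 0.07 for SLC30A3 in its lowest line. The MT2A estimate in isoform 1 was -0.67 (limma adjusted p = 0.149), and a link between MT2A and SLC30A1 was not tested. Of 10 genes beside the metallothionein cluster 8 were tested and 0 called, again too few genes to read as a result.

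Genes of the oxidative and heavy metal stress response held several calls, all of them higher. Of 12 genes, all tested, 9 had no call in any line and 3 were called in at least 1. They gave 13 pairs called higher and 0 lower out of 144, and 12 of the 13 came from SRXN1 and HMOX1. Over all tested genes and the 12 lines, 0.94% of pairs were called higher. SRXN1, which reactivates peroxiredoxins, rose in 7 lines, isoforms 1, 2, 3, 7, 8, 10 and 11. It went from 69.6 ± 2.88 TPM in the parental cells to 292 ± 27.6 TPM in isoform 1 (log2 fold change 2.05) and 247 ± 9.5 TPM in isoform 11 (log2 fold change 1.81). HMOX1, the haem oxygenase that heavy metals also induce, rose in 5 lines and most in isoform 1, from 23.7 ± 1.96 to 135 ± 18.1 TPM (log2 fold change 2.45). OSGIN1 rose in isoform 1 alone among the calls, by a log2 fold change of 1.24. SRXN1 was not called in the other 5 lines, isoforms 4, 5, 6, 9 and 12, where it was at 66.1, 60.5, 62.2, 101 and 116 TPM. Thus in isoform 11 SRXN1 was called higher and MT2A lower, in the same 3 libraries.

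Lists for other known inducers held calls in isoforms 1 and 2 only. These lines also had the largest shares of all tested genes called, 4.52% and 3.73%. Of 108 pairs of a heat shock gene and a line, 0 were called higher and 1 lower. Of 96 such pairs for the glucocorticoid response, 2 were called higher and 2 lower. Over all tested genes and the 12 lines, the share of pairs called higher was 0.94%. The share called lower over the 12 lines is not given. For calls lower, only the shares of isoforms 1 and 2 above, which cover both directions, apply. Of 10 heat shock genes 9 were tested, and HSPA1B, an inducible chaperone with a near-identical copy that makes its level uncertain, was lower in isoform 1 (log2 fold change -1.06). Of 9 glucocorticoid response genes 8 were tested. DUSP1, a phosphatase, rose in isoform 1 (log2 fold change 1.33) and GADD45B, a stress sensor, in isoform 2 (1.13), while the kinase SGK1 fell in isoforms 1 and 2 (-1.12 and -1.18). The called members of this list thus moved in both directions.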

How the data were processed

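The authors deposited 1 table per group with TPM per library. Per the submitters' processing notes, Trimmomatic 0.36, FastQC 0.11.5, kallisto 0.44.0, DESeq2 1.22.2 and GRCh38.p12 were used, with no role given. TPM columns summed to 999972.6 to 999987.7, and read depth per library is unknown. The lines' tables also hold the authors' comparison with the parental cells, per the file headers: mean normalised counts (a signal), log2 fold change with SE, test statistic (a score) and p-values. These entered no fit. The authors' deposited mean normalised counts were 5941 to 10007 for MT2A, 3309 to 4459 for MT1E, 631 to 902 for MT1X and 195 to 237 for MT1F.

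Tables were joined by row order. For isoforms 4 and 5, 29 gene names did not match the parental ones, and the latter were used. The 12 HNF4A isoform rows were summed, and 108 rows with repeated names were kept apart. The labels give 1 name for the 3 libraries of isoform 4 and 1 for those of isoform 5, so these 6 libraries have a group and no replicate number. Fits used limma 3.58.1 in R 4.3.3 on log2(TPM + 1), a scale that understates changes of low genes, with 26 residual degrees of freedom, a mean-variance trend and Benjamini-Hochberg adjustment, and were tested on simulated data. Besides the members, list genes were named where called in the most lines (at most 4 per list), and for each tested member the 2 genes with the highest r over group means. The members and lists were chosen with earlier results of these data known. Alternatives changed the pseudocount (0.1), the filter (5 TPM or none), scaling, the libraries in the fit, the variance model, the minimum fold change and the replicate number.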

Additional observations from a re-analysis of the deposited data

Results flagged for a closer look

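The difference in MT2A between 2 sets of lines had an adjusted p under 0.05, but it was smaller than the fold required for a call, and 34.6% of all tested genes had such a p. MT2A was higher by 0.63 on the log2 scale in isoforms 4 to 6 than in isoforms 1 to 3 (limma over 12 line means, adjusted p = 0.0209), and the group mean of each of isoforms 4, 5 and 6 exceeded that of each of isoforms 1, 2 and 3. Over the alternatives the difference ranged from 0.22 without replicate 2 (adjusted p = 0.378) to 0.94 without replicate 1 (adjusted p = 0.00668). Over the numbered groups alone the difference was 0.46. Isoforms 4 and 5 drop out of that fit, so isoform 6 alone stands for isoforms 4 to 6. The class comparison used line means and held no term for the replicate number, so a block was not tested there. Replicate 2 is the number at which the MT2A level was lowest in 10 of the 11 numbered groups, and the libraries of isoforms 4 and 5 have no number, so they stay in the comparison when a number is left out. Groups of 3 libraries are too small for a check for outlying samples, so none was made.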

How the results depend on the processing

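No called value changed direction. Of 1670 recomputed values of single genes, 1664 kept their side of the call rule, but nearly all belonged to comparisons without a call. The 1 call, MT2A in isoform 11, was lost in 5 alternatives. In 1 alternative an uncalled comparison came to meet the rule. Of the uncalled values 59 changed sign, 49 of them in fits that left out libraries and 5 under scaling by the median of ratios, where the values concerned were at most 0.06 on the deposited scale. The count of pairs called higher was 0 under all of them. The count called lower was 1, and 0 with no filter (MT2A in isoform 11 at adjusted p = 0.0513) and in 4 of the fits that left out libraries, which ranged from 0 to 1. The MT2A log2 fold change in isoform 11 ranged from -1.39 to -0.94 and its limma adjusted p from 0.000146 to 0.17. The count of calls between isoform classes was 0, and 1 with no minimum fold change (MT2A, isoforms 4 to 6 against 1 to 3). Scaling by the median of ratios gave -1.08 for MT2A in isoform 11 (adjusted p = 0.0338). The largest median over all genes was -0.11, in isoform 1, on the deposited scale.

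The correlation of same-numbered parental and line libraries was over 0.1, the minimum set for pairing, in 4 of 30 pairs (range -0.05 to 0.19). Over all numbered groups, however, the same number correlated best in 227 of 330 cases. The median r was 0.05 for the same number and -0.03 for other numbers. The main fit held no term for the replicate number. As a block, the number lowered the SE of MT2A from 0.40 to 0.24 and that of MT1X from 0.38 to 0.18. With the replicate number as a block, over the numbered groups, the counts were 0 higher and 1 lower, and MT2A in isoform 11 had an adjusted p of 0.000363. At an adjusted p under 0.05 alone the block gave 9 of 50 pairs of the 10 numbered lines, against 1 of the same 50 without it. Over all tested genes in these lines the share was 36.7% with the block and 33.7% without. The 9 pairs were MT2A in isoforms 1, 7, 10 and 11, MT1E in isoforms 1, 10 and 11, MT1X in isoform 11 and MTF1 in isoform 2. Leaving out 1 library of the parental cells or of isoform 11, and a block with the numbers of the column names, were added after the data were seen. Depth is unknown from TPM, so no counting interval could be given.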

Other observations

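The numbers of the libraries were followed up after the pattern in the metallothioneins had been seen, so the values below are descriptions. In a limma fit with group and replicate number as terms over the 11 numbered groups, MT1X differed by -0.94 ± 0.09 on the log2 scale between replicates 2 and 1, and ranked 1 by p-value among 15003 genes. MT1E differed by -0.68 ± 0.09 (rank 3), MT2A by -0.90 ± 0.12 (rank 4) and MT1F by -0.34 ± 0.07 (rank 93). The pseudogene MT1DP differed by -0.10 ± 0.15 and MTF1 by 0.09 ± 0.04. At an adjusted p under 0.05 alone, 6.4% of all tested genes differed between replicates 2 and 1. Of the 9 tested heat shock genes 4 did, all higher in replicate 2 (median of the list 0.18): DNAJB1 by 0.49 ± 0.07, HSPA1B by 0.43 ± 0.08, HSPH1 by 0.27 ± 0.05 and HSPA8 by 0.18 ± 0.05. Of the 7 tested zinc exporters 2 did, SLC30A7 by 0.19 ± 0.05 and SLC30A4 by 0.16 ± 0.04 (median of the list 0.08). The other lists held fewer: 0 of 11 zinc importers, 0 of 12 copper-handling genes and 0 of 8 genes beside the cluster. Among 12 oxidative and heavy metal stress genes 1 differed, NFE2L2 by 0.10 ± 0.02. Among 8 glucocorticoid response genes 1 differed, SGK1 by -0.20 ± 0.05.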
